A study of Mus musculus with 9 samples.

Results

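The tripartite motif (TRIM) family was examined in mouse testis with and without profilin 3, and Trim27, the member that the study followed, was placed among its paralogs. Members were the protein-coding rows of the deposited gene table whose symbol is Trim followed by a number and at most 1 letter, which gave 66 of the 38674 rows (21019 of them protein-coding). RNA came from testes, freed of the tunica albuginea, of C57BL/6 males that were wild-type (Pfn3+/+, WT), heterozygous (Pfn3+/-, Het) or deficient (Pfn3-/-, KO) for Pfn3, with 3 samples per genotype, named here by genotype and number. The Pfn3 alleles were frameshift deletions made by CRISPR/Cas9 in zygotes and backcrossed to C57BL/6. Several lines were established, and the line used for RNA is not given in the sources used here. Males were sexually mature, between 2 and 6 months old. QuantSeq 3′ mRNA libraries were sequenced, in which a read comes from near the polyadenylated end of a transcript. Levels are given as normalized counts, that is, reads per gene after division by the size factor of the library.

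TRIM proteins are built from a RING finger, 1 or more B-box zinc fingers and a coiled coil, followed by a C-terminal part that differs between classes and sets what the protein binds. The RING finger makes most of them E3 ubiquitin ligases, and the coiled coil lets them pair. Members are known for restricting viruses, for repressing chromatin, for organising microtubules and muscle fibres, and for selecting cargo in autophagy. TRIM27, also called RET finger protein, carries a PRY-SPRY domain at its C-terminus, is abundant in male germ cells, and works with MAGE-L2 and USP7 on the WASH complex, which builds actin on endosomes for retromer-dependent recycling.

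Trim27 (ENSMUSG00000021326) lies on the plus strand of chromosome 13 of GRCm38 from 21179445 to 21194724, with up to 9 exons in its 4 protein-coding transcripts, which end at 4 different positions. Its promoter is shown with those of Trim37 and Trim28, the 2 members with the highest mean level, so that a member with a large difference between genotypes can be read beside those that lead the family. Each is a RefSeq window of 300 bases on GRCm38.p6, on the plus strand, from 250 bases before to 50 after the start, at chr13:21179681-21179980, chr11:87126825-87127124 and chr7:13023902-13024201. Capitals mark a GC box (GGGCGG on either strand) or a CCAAT box (CCAAT on either strand).
Trim27: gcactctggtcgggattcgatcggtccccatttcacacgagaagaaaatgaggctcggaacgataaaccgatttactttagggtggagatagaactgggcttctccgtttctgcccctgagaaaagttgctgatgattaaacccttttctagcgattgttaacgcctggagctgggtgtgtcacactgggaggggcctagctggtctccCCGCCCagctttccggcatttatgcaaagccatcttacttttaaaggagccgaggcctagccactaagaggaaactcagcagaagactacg
Trim37: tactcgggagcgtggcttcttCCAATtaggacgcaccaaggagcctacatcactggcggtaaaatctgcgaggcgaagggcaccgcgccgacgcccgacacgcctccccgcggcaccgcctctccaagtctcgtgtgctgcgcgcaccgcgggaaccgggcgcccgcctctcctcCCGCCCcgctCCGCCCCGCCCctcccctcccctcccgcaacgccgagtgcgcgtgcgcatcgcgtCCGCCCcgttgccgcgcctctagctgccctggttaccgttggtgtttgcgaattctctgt
Trim28: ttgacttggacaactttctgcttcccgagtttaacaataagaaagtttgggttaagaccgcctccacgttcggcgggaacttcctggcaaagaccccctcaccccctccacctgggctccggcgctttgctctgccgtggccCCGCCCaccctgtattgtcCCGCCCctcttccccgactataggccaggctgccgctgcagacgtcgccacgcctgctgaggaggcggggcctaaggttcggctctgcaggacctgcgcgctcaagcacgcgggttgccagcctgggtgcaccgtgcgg
The Trim27 window held 1 GC box and 51.0% G or C, the Trim37 window 4 GC boxes (a pair of them sharing a base), 1 CCAAT box and 69.7%, and the Trim28 window 2 GC boxes and 64.0%. No TATA box (TATAAA) and no CRE (TGACGTCA) was found on either strand of these 3 windows. Promoter windows were found for 52 of the 66 members (66 windows). A GC box was in 37.9% of these and in 35.7% of all 32851 windows, a CCAAT box in 47.0% and 37.4%, a TATA box in 12.1% and 13.6%, and a CRE in 3.03% and 1.79%. The median G or C share was 53.3% for member windows and 52.7% for all.

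Reads counted on genes numbered 3375546 to 4287335 per sample, and a level of 3 reads, which is 2.58 to 3.71 normalized counts depending on the sample, was set as the detection limit. It allows for counting error alone. Pfn3 itself had 592, 383 and 373 normalized counts in WT samples 1 to 3, 136, 339 and 326 in Het samples and 74.7, 215 and 279 in KO samples. These counts come from the 3′ end of a transcript whose deletion lies in the coding sequence, so they do not check the genotype labels. Haploid germ cell RNA was abundant in each sample, with a sum over Tnp1, Tnp2, Prm1 and Prm2 of at least 123400 normalized counts, while the epididymis markers Defb12 and Lcn5 had none, Crisp1 had at most 7.72 and Rnase10 at most 35.0. The labels do not say that the 3 samples of a genotype came from separate mice, so that p-values measure only the spread between these samples.

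Of the 66 members, 32 had more than 3 reads in all 9 samples, 16 in some samples, and 18 in none. These 18 were Trim3, Trim10, Trim14, Trim15, Trim29, Trim30b, Trim30c, Trim31, Trim34b, Trim40, Trim43a, Trim43b, Trim50, Trim58, Trim60, Trim61, Trim72 and Trim75, of which 15 had no read at all. The family summed to 5359 to 9266 normalized counts per sample, which was 0.153% to 0.263% of all counts. Because a 3′ library gives a transcript reads at its end whatever its length, levels are compared here between genes without dividing by length. The rank per kb of annotated exon is given for Trim27 alone, and the order of other members can differ on that scale.

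**Figure D1:**
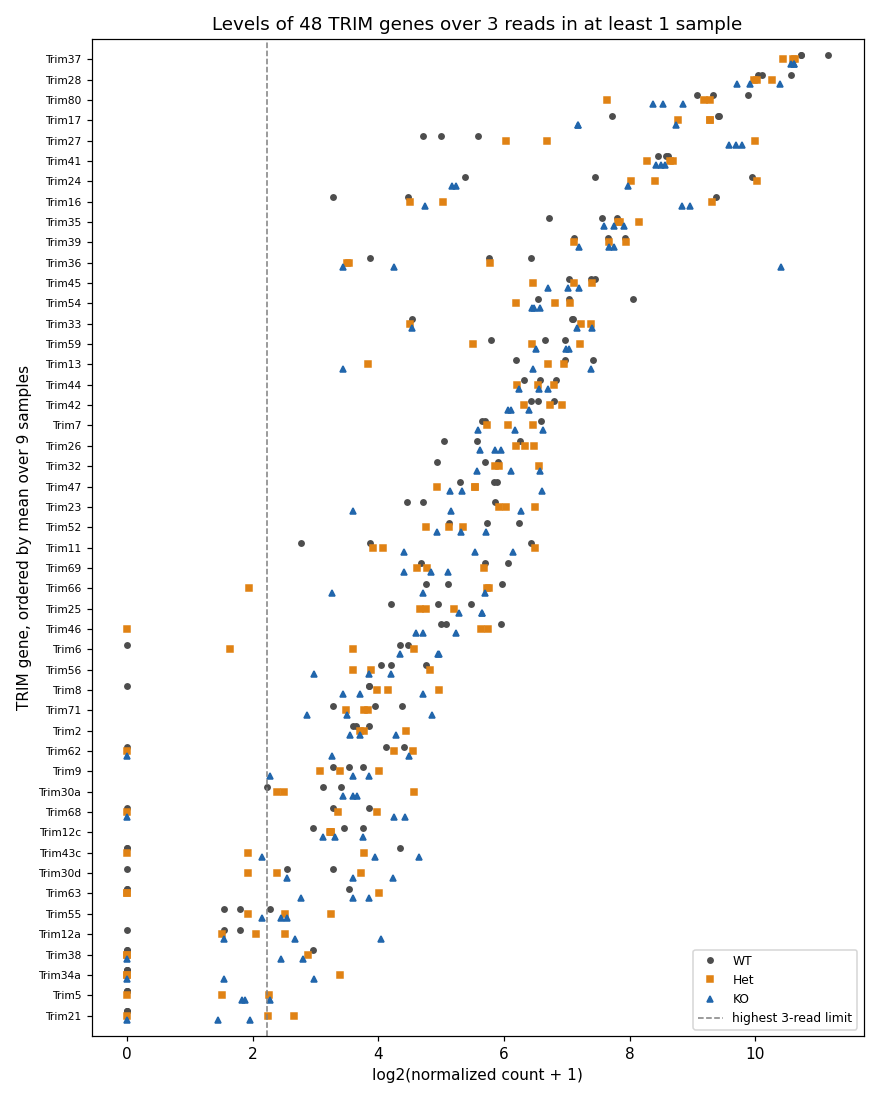
Levels of the 48 TRIM genes with more than 3 reads in at least 1 sample, as log2(normalized count + 1) on the x axis, with 1 point per sample (circles WT, squares Het, triangles KO) and genes ordered by their mean over 9 samples. The dashed line is the highest value that 3 reads took in any sample, 3.71 normalized counts. Trim37 and Trim28 head the order in tight groups, whereas the points of Trim27, Trim24, Trim16 and Trim36 spread widely.

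Trim37 was the most abundant member. It is a RING ligase with a MATH domain, linked to peroxisomes, centrosomes and chromatin. It had 2288, 1697 and 1683 normalized counts in WT, 1380, 1584 and 1543 in Het and 1570, 1558 and 1518 in KO. Trim28, the co-repressor recruited by KRAB zinc finger proteins, followed with 1522, 1048 and 1096 in WT, 1004, 1228 and 1038 in Het and 832, 1345 and 964 in KO. The samples of a genotype lay close together for Trim37 and somewhat less so for Trim28 in KO. Trim80 (mean over 9 samples 519), Trim17 (440), Trim27 (417) and Trim41 (368) came next. Trim17, a ligase first described in testis, and Trim41 both belong to the PRY-SPRY class. Trim41 was among the steadiest members, with means of 373 ± 22.3 for WT, 373 ± 55.7 for Het and 359 ± 16.3 for KO (SD, n = 3). Trim24 (351), Trim16 (261), Trim35 (210), Trim39 (192), Trim36 (179) and Trim45 (138) completed the 12 highest means.

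The position of Trim27 in this order depended on genotype. It had 47.0, 25.1 and 30.9 normalized counts in WT samples 1 to 3 (38, 26 and 32 reads), 64.2, 1014 and 102 in Het (68, 1089 and 96 reads) and 825, 764 and 879 in KO (961, 790 and 983 reads). All 3 KO samples lay above all 3 WT samples, and Het sample 2 lay above the KO samples while the other 2 Het samples lay between WT and KO. By the mean of each genotype Trim27 ranked 28 of 66 in WT, 6 in Het and 3 in KO. Sample by sample its rank was 20, 26 and 27 in WT, 18, 4 and 14 in Het and 3, 4 and 3 in KO. Per kb of annotated exon the ranks by genotype were 26, 7 and 4. Trim27 made up 0.323% to 0.647% of the family's counts in WT, 1.20%, 10.9% and 1.57% in Het and 8.86% to 14.0% in KO.

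Without Trim27, the other 65 members together had 7227, 7745 and 6666 normalized counts in WT, 5295, 8252 and 6373 in Het and 5548, 7861 and 5404 in KO. These sums overlapped between all 3 genotypes. The number of members with more than 3 reads was 34, 44 and 40 in WT, 41, 40 and 43 in Het and 46, 42 and 45 in KO. WT sample 1, at the low end, had the fewest reads on genes, 3375546. KO sample 2, with 42 members, had nearly as few, 3386131. The part of read depth in these numbers was not tested.

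Differences between genotypes were tested with limma on log2(normalized count + 1) over every gene that reached 10 normalized counts in 3 or more of the 6 samples compared. A gene was called at a Benjamini-Hochberg adjusted p-value under 0.05 and an absolute log2 fold change above 1.5, the cutoffs of the study. Of 66 members 39 passed the filter in KO against WT, 36 in Het against WT and 41 in KO against Het.

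Between KO and WT, 1 of the 39 members tested was called, and this was Trim27. Over all 14223 genes limma called 0.0352%. The log2 fold change of Trim27 was 4.59 ± 0.27 (SE, limma adjusted p = 0.0136). The call also stood with the DESeq2 Wald test (log2 fold change 4.60, adjusted p = 9.87e-42) and edgeR's quasi-likelihood test (4.61, adjusted p = 0.0194), which each called Trim27 and no other member, and which called 0.714% and 0.0352% of all genes. It did not pass in limma with all 9 samples in 1 fit (adjusted p = 0.522) or with the replicate number as a block (0.224), nor when WT sample 2 (0.117), WT sample 3 (0.0897), KO sample 2 (0.103) or KO sample 3 (0.181) was left out, with log2 fold changes of 4.39 to 4.64 in all these fits. The next highest fitted change belonged to Trim63, a muscle RING finger protein, at 2.23 ± 1.16 (SE, limma adjusted p = 0.617), on values of 0 to 15.1 normalized counts over all 9 samples.

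The 39 members had a median KO against WT log2 fold change of -0.02, and over all genes it was 0.02. Of the members 19 lay above 0 and 20 below, and 51.4% of all genes lay above 0. An unadjusted limma p-value under 0.05 was found for 2 of the 39, Trim27 and Trim80, and for 8.07% of all genes by limma, 7.55% by DESeq2 and 7.66% by edgeR. Trim80 had 945, 533 and 639 normalized counts in WT and 369, 329 and 460 in KO, with 198, 621 and 577 in Het. Its KO samples lay below its WT samples, with a log2 fold change of -0.84 ± 0.27 (SE, limma adjusted p = 0.610).

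The KO and WT samples did not overlap for 4 of the 39 members and for 19.9% of all genes tested. Trim27 was higher in KO, where 9.41% of all genes tested lay apart in that direction. Trim37, Trim42 and Trim80 were lower, where 10.5% of all genes did. Trim42, which carries a COS box and a fibronectin repeat, had 85.4, 91.7 and 110 normalized counts in WT and 83.3, 65.8 and 67.9 in KO (log2 fold change -0.40 ± 0.22 SE, limma adjusted p = 0.629). Trim37 had a log2 fold change of -0.27 ± 0.18 (SE, limma adjusted p = 0.643), with its gap set by KO sample 1 at 1570 and WT sample 3 at 1683.

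Levels of germ cell markers are given beside these 3 members, with limma calling 0 markers of each list. For elongating spermatids (4 of 4 markers in the table, none at 0) the summed level was 233300 to 249400 normalized counts in WT, 179100 to 214900 in Het and 123400 to 199700 in KO, and all 4 log2 fold changes in KO against WT were below 0, with 2 at an unadjusted p-value under 0.05 (8.07% of all genes). For round spermatids (4 of 4 in the table, none at 0) the sum was 3296 to 4119 in WT, 2720 to 3712 in Het and 1737 to 2760 in KO, with 3 log2 fold changes below 0 and 1 above (Spaca1, 0.13) and 2 at an unadjusted p-value under 0.05. For spermatocytes (5 of 5 in the table, none at 0) the sum was 6821 to 8147 in WT, 6004 to 7973 in Het and 6535 to 8559 in KO. Of 4 markers tested 3 lay above 0 and 1 below (Hspa2, -1.63 ± 1.31 SE), with a median of 0.44 and 2 at an unadjusted p-value under 0.05 (Sycp1, 0.76, and Sycp3, 0.71). Hspa2 had 98.3 normalized counts in Het sample 1 and 102 in KO sample 2, against 2476 to 3416 in the other samples. Hspa2 is itself part of the spermatocyte sum, so the sums of these 2 samples, the lowest of Het and KO, are not separate from it. The part of these 2 samples in the values of Trim37, Trim42 and Trim80 was not tested. In whole testis, fewer cells of a type and less RNA per cell cannot be told apart.

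**Figure D2:**
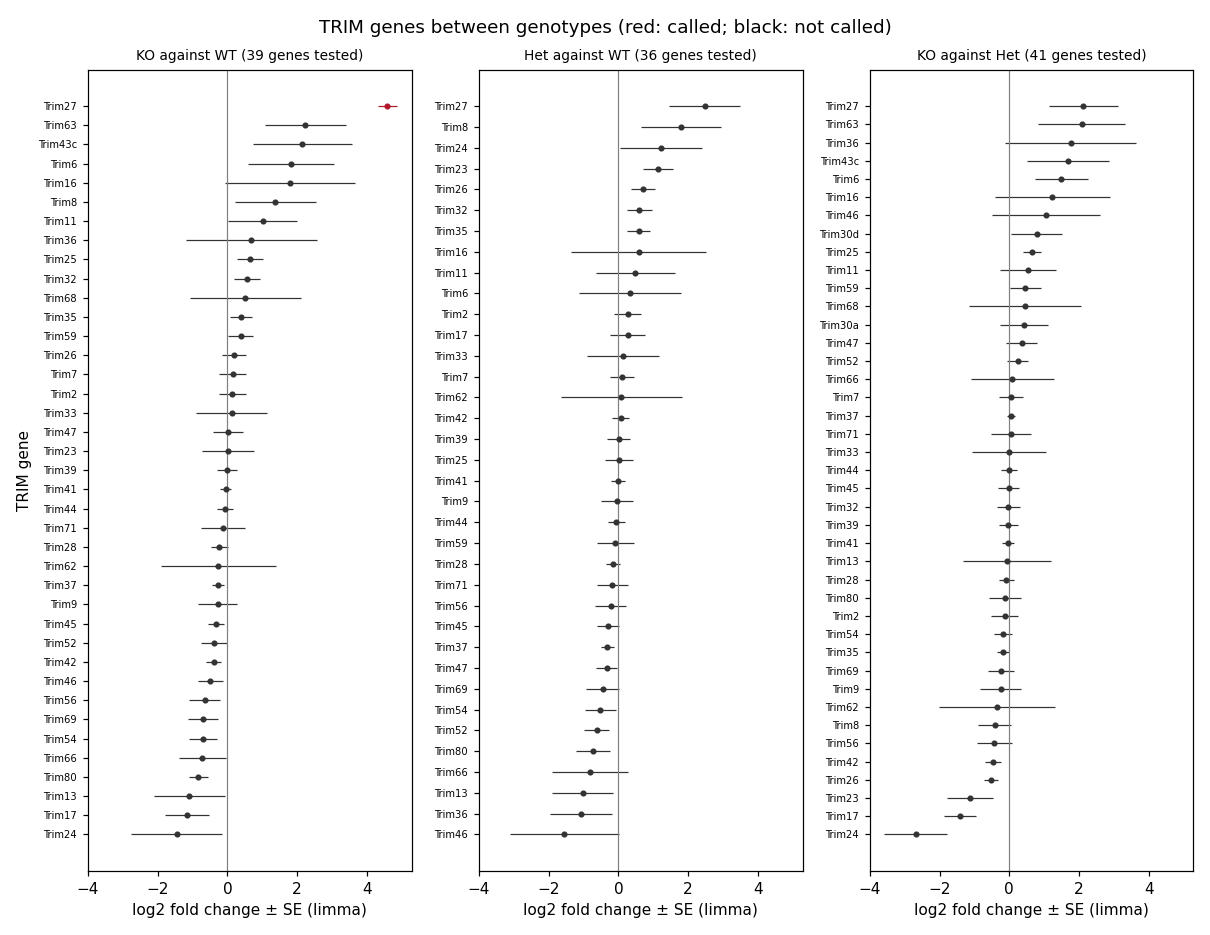
Log2 fold change of each TRIM gene tested, with its standard error as a bar (x axis), in KO against WT (39 genes), Het against WT (36) and KO against Het (41), from limma with 3 samples per genotype. Genes are ordered by the fitted change in each panel, and red marks a called gene. Trim27 is the only red point, at 4.59 in KO against WT, and it heads the other panels without a call at 2.47 and 2.12.

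Between Het and WT, 0 of 36 members were called by limma, 0 by DESeq2 and 0 by edgeR, and 1, 1 and 1 had an unadjusted p-value under 0.05. Over all 14216 genes limma called 0.0%, DESeq2 0.22% and edgeR 0.0%, and unadjusted p-values under 0.05 were found for 3.34%, 3.14% and 2.88%. Trim27 had a log2 fold change of 2.47 ± 1.03 (SE, limma adjusted p = 0.779), and without Het sample 2 it was 1.26. The Het samples lay above the WT samples for Trim27, Trim23, Trim35 and Trim8 (6.76% of all genes did) and below them for Trim37 (6.49%). Trim23, the member that ends in an ARF GTPase domain, was the 1 with an unadjusted limma p-value under 0.05. It had 21.0, 25.1 and 57.0 normalized counts in WT, 88.8, 59.6 and 64.6 in Het and 11.2, 76.4 and 34.9 in KO, so that KO overlapped with both other genotypes (Het against WT log2 fold change 1.14 ± 0.43 SE, limma adjusted p = 0.779). Trim35 had 104, 187 and 221 in WT and 283, 224 and 229 in Het, with WT sample 3 and Het sample 2 almost touching. Trim8 had 0, 13.5 and 13.5 in WT (0, 14 and 14 reads) and 30.2, 16.8 and 14.8 in Het (32, 18 and 14 reads). Its Het sample 3 thus lay above WT samples 2 and 3 on the same 14 reads, through the size factors alone.

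Between KO and Het, limma called 0 of 41 members and 0.0558% of 14343 genes, and DESeq2 and edgeR called 0 members as well (0.267% and 0.0488% of genes). Unadjusted p-values under 0.05 were found for 4, 2 and 3 members by limma, DESeq2 and edgeR, and for 3.56%, 2.83% and 3.26% of all genes. The 4 were Trim17, Trim24, Trim26 and Trim25, and in each the 3 KO samples lay apart from the 3 Het samples, below them for Trim17, Trim24 and Trim26 (4.9% of all genes did) and above them for Trim25 (5.12%). For Trim17 the values were 435, 621 and 621 normalized counts in Het and 143, 424 and 144 in KO (log2 fold change -1.42 ± 0.46 SE, limma adjusted p = 0.973). Its WT samples, at 210, 677 and 683, overlapped with both. Trim26, encoded beside the major histocompatibility genes, had 71.8, 88.5 and 79.4 in Het and 56.7, 48.4 and 60.8 in KO. Trim25, the ligase that activates the RNA sensor RIG-I, had 35.9, 26.1 and 24.3 in Het and 37.8, 49.3 and 49.2 in KO. For Trim27 the KO against Het log2 fold change was 2.12 ± 0.99 (SE, limma adjusted p = 0.973), with Het sample 2 above the KO samples. Without Het sample 2 it was 3.33 (limma adjusted p = 0.0169), and Trim27 was called. The 3 comparisons share samples, so their values are given side by side and not as support for each other.

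Several members took very different values in samples of the same genotype. Among the 29 members with a mean of at least 30 normalized counts, 8 (27.6%) had a genotype in which the highest sample was above 30 and over 8-fold the lowest, with values under 3 reads set to that limit. The same held for 1568 of 10618 genes (14.8%) of the whole table. The 8 were Trim27, Trim24, Trim16, Trim36, Trim13, Trim11, Trim66 and Trim46. For Trim27 the range was 15.8-fold in Het, 1.88-fold in WT and 1.15-fold in KO, so its wide range came from 1 sample of 1 genotype.

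Trim16, a member without a RING finger that takes part in the removal of damaged lysosomes, had the widest range in WT. Its normalized counts were 8.67, 659 and 21.2 in WT (7, 683 and 22 reads), 21.7, 630 and 31.8 in Het and 495, 455 and 25.9 in KO. Samples of each genotype thus sat either near 500 or near 20, with a ratio of 76.0 in WT, 29.0 in Het and 19.1 in KO. The KO against WT log2 fold change of 1.81 had a standard error of 1.87 (limma adjusted p = 0.706). Trim36, also known as haprin and described in acrosome exocytosis, had 1359 normalized counts in KO sample 2 (1405 reads), against 18.0 and 9.83 in the other KO samples, 13.6, 53.1 and 85.0 in WT and 10.4, 54.0 and 10.6 in Het. In that sample it stood beside Trim28, at 1345. Without KO sample 2 the KO against WT log2 fold change of Trim36 was -1.51 in place of 0.68, neither of them called.

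Trim24, a co-regulator of nuclear receptors that shares its PHD finger and bromodomain with Trim28, had 173, 985 and 40.6 in WT, 335, 1038 and 259 in Het and 35.2, 251 and 36.6 in KO. WT sample 2 and Het sample 2 stood far above the rest. The Het samples all lay above the KO samples, and the KO against Het log2 fold change was -2.68 ± 0.90 (SE, limma adjusted p = 0.973). Trim13, a ligase of the endoplasmic reticulum membrane, was low in Het sample 1 (13.2) and KO sample 3 (9.83) and between 71.8 and 169 in the other 7 samples. Trim11 ran from 5.79 to 85.0 in WT and from 14.2 to 89.4 in Het. Trim66 ran from 2.83 in Het sample 1 to 61.8 in WT sample 3. Trim46, a microtubule protein of the axon, had no read in Het sample 1 and 23.2 to 60.7 normalized counts in the others. Het sample 2 was the highest of its genotype for 6 of the 8 genes and Het sample 1 the lowest for 7 of the 8. The family sums of these 2 samples were the highest (9266) and lowest (5359) of all samples. Among WT and KO samples the highest of the genotype was shared out, with 2 or 3 of the 8 genes for each sample. The 8 genes were chosen for range inside a genotype, Trim27, Trim66 and Trim46 through Het alone. The counts for Het samples 1 and 2 thus depend on that choice, and they were not set beside all genes with a wide range.

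**Figure D3:**
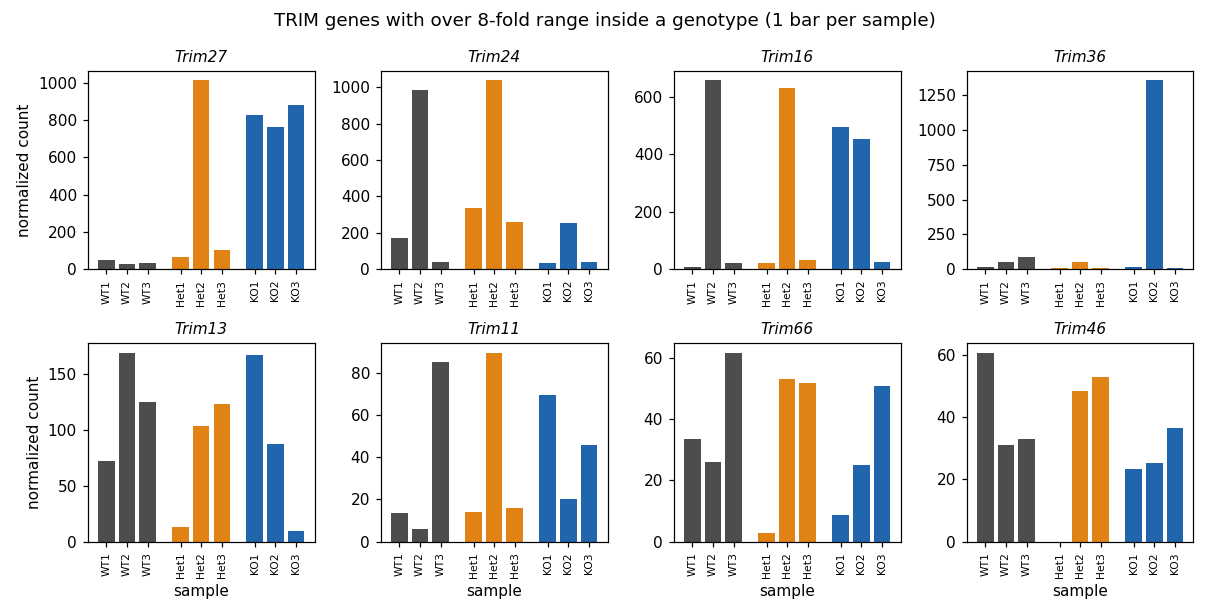
Normalized counts (y axis, from 0) of the 8 TRIM genes with over 8-fold range inside a genotype, with 1 bar per sample (grey WT, orange Het, blue KO). Trim27 is high in Het sample 2 and all KO samples, Trim16 in WT sample 2, Het sample 2 and KO samples 1 and 2, and Trim36 in KO sample 2 alone at 1359.

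The annotation around these genes was examined for reads that could belong elsewhere, since the sources used here do not say whether counting used strand. Gm47806, an antisense RNA that overlaps 8112 bases of Trim27, had 0 in all 9 samples. The nearest rows upstream by position, Olfr1368 and Olfr263, had at most 1.94 normalized counts. Downstream, Gpx5 had at most 1.93, and Gpx6 had 45.8, 114 and 137 in WT, 147, 136 and 108 in Het and 99.6, 63.9 and 127 in KO, so that its genotypes overlapped. Of 5591 different stretches of 50 bases in the Trim27 transcripts 94 (1.68%) also occurred in transcripts of other genes on the same strand, and 0 of the 2132 in the last 500 bases of its transcripts. With either strand counted, the share in the last 500 bases stayed at 0.0% for Trim27. It went from 0.0% to 14.8% for Trim46, 11.3% for Trim80 and 27.7% for Trim54, and from 22.2% to 75.8% for Trim34a. The shares that follow are for the same strand. For Trim16, 10.5% of the stretches in the last 500 bases occurred in Fbxw10, which overlaps it on the same strand. For Trim13, 10.2% occurred in Gm9359. The last 500 bases of Trim47 shared 10.1% with Trim65, which overlaps it on the same strand. Neither Fbxw10 nor Trim65 had a row of its own in the deposited values, nor did Hist3h2a, which overlaps Trim17 on the same strand. Of the 66 members, 41 were on rows named by the merged transcript assembly. These included every member with a mean of at least 30 normalized counts, and so all 8 with a wide range. Whether such rows hold reads of overlapping genes was not tested.

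Across all 9 samples the genes most like Trim27 were sought among 14164 other genes with a mean of at least 10, by Pearson's r of log2(normalized count + 1). The 5 highest were Gm13817 (r = 0.92), B3gnt9 (0.90), Gm26823 (0.90), Kcnd3 (0.90) and Tube1 (0.90). The 5 lowest were Srsf9 (-0.95), Gm44649 (-0.91), Ik (-0.88), Ppp2r2a (-0.88) and Esx1 (-0.87). These are descriptions over 9 samples that share genotypes and libraries. Srsf9, an SR splicing factor, was the closest mirror, with 262, 318 and 285 normalized counts in WT, 425, 3.72 and 358 in Het and 2.58, 1.93 and 0.894 in KO, so that Het sample 2 again sat with the KO samples. B3gnt9, a glycosyltransferase, had at most 1.24 in WT and Het sample 1, and 24.2, 23.3, 25.8, 38.7 and 31.3 in the other Het and the KO samples, so that it put Het sample 3 with KO where Trim27 did not. Gm13817, a long non-coding RNA, moved far less, from 90.8 to 111 in WT, with 90.7, 142 and 99.5 in Het and 127 to 135 in KO.

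Among the other members with a mean of at least 10, 35 were compared, and Trim11 (r = 0.55), Trim25 (0.49) and Trim59 (0.45) were the most like Trim27. Trim56 (-0.62), Trim17 (-0.46) and Trim52 (-0.43) were the least like it. These members were part of the list whose extremes are named above, so their less extreme r was fixed by that choice.

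**Figure D4:**
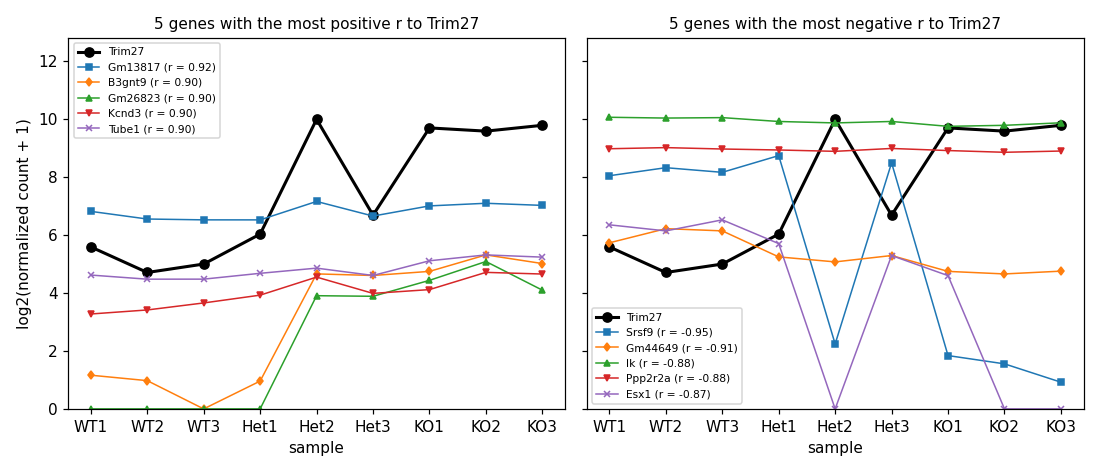
Log2(normalized count + 1) of Trim27 (thick black line) and of the 5 genes with the highest (left) and lowest (right) Pearson's r to it, by sample on the x axis. Het sample 2 sits with the KO samples for Trim27 (1014 against 764 to 879) and for Srsf9 (3.72 against 0.894 to 2.58).

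The PRY-SPRY class, to which Trim27 belongs, was the largest, with 35 of the 66 members. Of these 12 had more than 3 reads in all samples and 12 in none, and the mean levels ran from 0 to 440 normalized counts. In KO against WT 15 were tested, 1 was called (Trim27, beside 0.0352% of all genes), and their median log2 fold change was 0.19, beside 0.02 over all genes. Trim35 and Trim39 had log2 fold changes of 0.39 (standard error 0.32) and -0.02 (standard error 0.29). Trim69, a further RING protein of testis, had 24.8, 65.6 and 51.2 normalized counts in WT, 23.6, 50.3 and 26.5 in Het and 33.5, 20.3 and 27.7 in KO.

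The largest genomic cluster of TRIM genes, which holds the antiviral Trim5 and Trim30 genes, had few reads. Of the 10 genes in the cluster on chromosome 7 between 104218793 and 104507849 (Trim5, Trim6, Trim12a, Trim12c, Trim30a, Trim30b, Trim30c, Trim30d, Trim34a and Trim34b), 1 had more than 3 reads in all samples (Trim12c, 6.76 to 12.6 normalized counts), and the highest mean was 17.4, for Trim6. Among these genes sequence is shared: 36.9% of the last-500-base stretches of Trim5, 17.8% of Trim12c, 51.5% of Trim34b and 19.9% of Trim30a occurred in other genes, so that their split is uncertain. Trim21, the cytosolic antibody receptor, had at most 5.29 normalized counts. Leukocyte markers (5 of 5 in the table) summed to 129 to 188 normalized counts in WT, 103 to 188 in Het and 129 to 156 in KO, and interferon response genes (7 of 7 in the table, Bst2 at 0 in all samples) to 551 to 1085, 918 to 1039 and 631 to 934.

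In the cluster on chromosome 17 between 36837134 and 36910214, Trim26 (31.9 to 88.5 normalized counts) was the member with reads in all samples, and Trim10, Trim15, Trim31 and Trim40 had none. The neighbours Trim60, Trim61 and Trim75 on chromosome 8 had none either. Of the preimplantation genes Trim43a, Trim43b and Trim43c on chromosome 9, Trim43c reached 24.1 in KO sample 3 and was at 0 in 3 samples, and 35.0% of its last-500-base stretches occurred in other genes. On chromosome 11, Trim17 and Trim11 lie together with Trim58, which had no read, and Trim41 lies beside Trim7 (47.2 to 97.7).

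Members with a PHD finger and bromodomain, which bind histones, had a median of the mean levels of 229 normalized counts over 4 genes, and limma called 0 of 4 in each comparison, with an unadjusted p-value under 0.05 for 1 of them, Trim24 between KO and Het, where 3.56% of all genes had such a p-value and 0.0558% were called. Besides Trim28 and Trim24 these were Trim33, a regulator of SMAD signalling, and Trim66. Trim33 had 22.3, 136 and 134 in WT, 21.7, 148 and 165 in Het and 142, 22.3 and 167 in KO, so that 1 sample of each genotype was near 22 and the others above 130. Of the NHL members Trim32 (mean 61.9) led Trim71 (13.8), a repressor of mRNAs in stem cells, Trim2 (13.7) and Trim3 (0.512). Of the muscle RING finger genes Trim54 had 264, 91.7 and 129 in WT, 71.8, 132 and 111 in Het and 85.9, 88.0 and 93.8 in KO, while Trim63 and Trim55 stayed at or below 15.1. The microtubule-binding class held Trim36, Trim46 and Trim9, the last with a mean of 10.3. The transmembrane members Trim59 and Trim13 had means of 100 and 96.5, and Trim45, with a filamin domain, 138. Trim44, which has no RING finger, had means of 95.1 ± 16.5 for WT, 91.6 ± 18.3 for Het and 90.1 ± 14.1 for KO (SD, n = 3). Trim52 and Trim56, with no known C-terminal domain, had means of 42.1 and 16.5.

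Genes whose products work with TRIM27 were present, apart from Magel2. Of 10 listed, 9 were tested in KO against WT, 0 were called by limma (0.0352% of all genes) with 1 at an unadjusted p-value under 0.05 (8.07%), 8 lay above 0 and 1 below (51.4% of all genes lay above), and the median log2 fold change was 0.34, beside 0.02 over all genes. In Het against WT 0 of 9 and in KO against Het 0 of 8 were called by limma, with 1 and 0 at an unadjusted p-value under 0.05, beside 0.0% and 0.0558% of all genes called and 3.34% and 3.56% under 0.05. Magel2 had 1 read, in WT sample 3. Usp7, which encodes the deubiquitinase of the complex, had means of 476 ± 111 for WT, 429 ± 127 for Het and 501 ± 43.5 for KO (SD, n = 3). The retromer genes Vps35, Vps29 and Vps26a had log2 fold changes of 0.34 (standard error 0.18), 0.31 (0.20) and 0.50 (0.54). In WT sample 1, Vps26a stood at 209 against 590 to 828 in the other 8 samples.

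Washc1, which encodes the nucleation-promoting subunit of the WASH complex, was the 1 below 0. It had 249, 155 and 136 normalized counts in WT, 4.72, 136 and 4.23 in Het and 141, 6.77 and 3.58 in KO. It was thus at 136 or above in WT, Het sample 2 and KO sample 1 and under 7 in the other 4 samples (KO against WT log2 fold change -3.35 ± 1.27 SE, limma adjusted p = 0.610). Washc3 had 14.9 in WT sample 1 and 261 to 459 elsewhere, and Washc5 had 0 in Het sample 2 and 21.2 to 44.5 elsewhere. Washc2 and Washc4 ranged from 21.3 to 109 and from 33.8 to 70.6. The high and low samples of these genes did not follow those of Trim27.

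**Figure D5:**
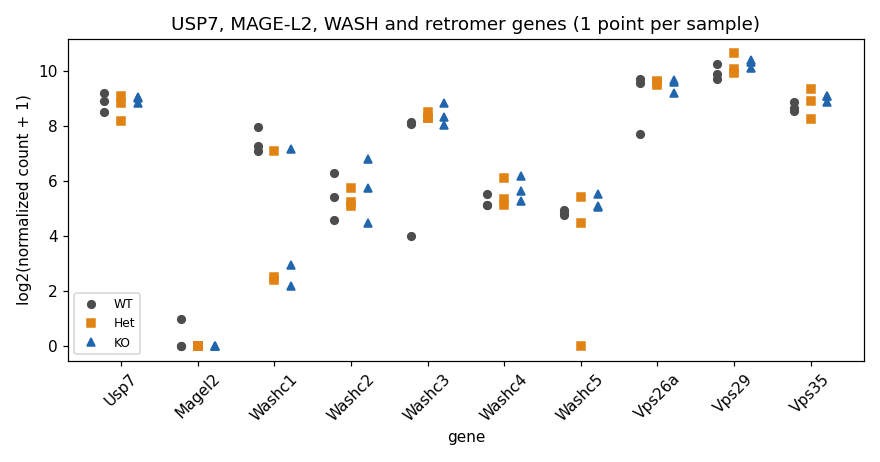
Log2(normalized count + 1) of the 10 genes whose products work with TRIM27 (y axis, genes along the x axis), with 1 point per sample (circles WT, squares Het, triangles KO). Washc1 falls into a high group (136 to 249 normalized counts) and a low group (3.58 to 6.77) that both hold Het and KO samples, while Usp7 and Vps35 stay together.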

How the data were processed

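RNA from 9 mouse testis samples (3 WT, 3 Het, 3 KO) was measured with QuantSeq 3′ libraries. Per the labels, the authors used Trim Galore 0.4.5, HISAT2 2.1, StringTie 1.3.3 and DESeq2 on GRCm38. The deposited table holds a signal per gene, read counts divided by 1 size factor per sample; 100% of its values above 0 were whole multiples of 1 read (tolerance 0.01), so reads could be recovered. These ranged from 3375546 to 4287335 per sample. Annotation was GENCODE M21, which held all 66 members.

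Each pair of genotypes was fitted with limma 3.58.1 (R 4.3.3) on log2(value + 1) over genes that reached 10 normalized counts in 3 or more samples, with Benjamini-Hochberg adjustment over all genes tested. DESeq2 1.42.0 (deposited size factors) and edgeR 4.0.16 (TMM) on recovered reads were alternatives, as were other filters, pseudocounts, TMM scaling of the values, all 9 samples in 1 fit, a replicate block and leaving out each sample. The fits were tested on simulated data. Fold changes from limma are on the log2(value + 1) scale, which understates changes of low genes.

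Genes named were Trim27, the 12 members with the highest means, members past a call, an unadjusted p-value under 0.05 or without overlap between genotypes, members with over 8-fold range in a genotype, examples of each class, and the genes closest to Trim27. The members, classes, partners and markers were chosen with earlier results of these data known. Protein sequences were not used here.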

Additional observations from a re-analysis of the deposited data

How the results depend on the processing

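Between KO and WT the log2 fold change of Trim27 was 4.43 to 4.61 over all alternatives with every sample and 4.39 to 4.83 when 1 sample was left out, with adjusted p-values of 0.00288 to 0.181 in the latter. The number of members called was 1, and 0 to 1 when 1 sample was left out; it was 0 without WT sample 2, WT sample 3, KO sample 2 or KO sample 3. With all 9 samples in 1 limma fit Trim27 had 4.59 (adjusted p = 0.522) and 0 members were called. With the replicate number as a block it had 4.59 (adjusted p = 0.224) and 0 members were called, with 4 at an unadjusted p-value under 0.05. The labels give the numbers no meaning, and the correlations of deviations between samples of the same number were -0.115, -0.0487 and -0.0275 between KO and WT, 0.168, 0.188 and -0.0276 between Het and WT and -0.14, -0.114 and 0.067 between KO and Het. In none of these comparisons did all 3 exceed 0.1. Between samples of different number the correlations ran from -0.242 to 0.188. The numbers were therefore not taken as pairs. Between Het and WT 0 members were called under each alternative, and Trim27 had 1.26 to 3.24 when 1 sample was left out, 3.52 by DESeq2 and 3.55 by edgeR, beside 2.47. Between KO and Het 0 to 1 members were called when 1 sample was left out, the 1 being Trim27 without Het sample 2, and its log2 fold change ran from 1.35 to 3.33, with 1.09 by edgeR, beside 2.12. DESeq2 gave no p-value for Trim27 there. The rank of Trim27 in KO was 3, and 4 per kb of exon. The cause of these shifts was not tested. With 3 samples per genotype, members near 3 reads could not be compared.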
